A study of Mus musculus with 18 samples.

Results

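The 10 genes described here encode parts of the BMP pathway and its Id targets: the ligand Bmp4, the receptors Bmpr1a and Bmpr2, the signal-carrying Smads Smad1, Smad5 and Smad9, the inhibitory Smad6, and the targets Id1, Id2 and Id3. They were chosen by name, without a threshold on their values. All 10 have a row among the 13104 genes counted in mouse embryonic stem cells (ESCs), and 9 have one among the 13717 genes counted in epiblast-like cells (EpiLCs), out of 14411 genes counted in either cell type. Smad9 has no row in EpiLCs. Each of the 19 gene rows passed the filter of more than 10 counts in total, as did every other gene. The lowest total of any gene was 82 in ESCs and 80 in EpiLCs.

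RNA was sequenced from 3 cultures in each of 4 groups, vehicle ESCs, ESCs exposed to Δ9-THC at 100 nM, vehicle EpiLCs and exposed EpiLCs. Δ9-THC is the main psychoactive compound of cannabis, and the vehicle was ethanol. The cells in all 4 groups carry the BVSC transgenes, a Blimp1::mVenus and a Stella::ECFP reporter of germline genes. The study worked with a female clone of this line and repeated some assays in a male clone, and its account of the sequencing does not name the clone. ESCs grew in 2i medium with LIF, and EpiLCs were made from them in medium with activin A, bFGF and serum replacement while the exposure went on, so exposed EpiLCs come from exposed ESCs. No BMP ligand is named among the additions at either stage.

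BMP ligands bind paired type I and type II receptor kinases such as Bmpr1a and Bmpr2, which phosphorylate Smad1, Smad5 and Smad9. These enter the nucleus with Smad4 and switch on targets that include the Id genes, whose proteins lack a DNA-binding domain and hold E proteins away from DNA, and Smad6, which feeds back to block the pathway. In mouse ESCs cultured with serum the pathway is known for holding back neural differentiation through Id genes, and in the epiblast BMP4 induces the germ cell lineage.

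The question of the comparison was whether transcription in the 2 cell types shifted with continuous exposure. The total of the deposited counts ranged from 23427551 to 32096698 over the 12 libraries. Levels are given as CPM, counts scaled to the library size with TMM factors. Summed CPM of 12 markers of naive pluripotency was 4744 to 5207 in ESC libraries and 361 to 426 in EpiLC libraries, and that of the formative markers in the tables was 205 to 230 and 1983 to 2350.3. Of 8 trophoblast markers, 6 have a row in each cell type, with a summed CPM of 71.8 to 76.3 in ESCs and 87.5 to 128 in EpiLCs, while Cdx2 and Elf5 have none. Of 8 endoderm markers, 1 has a row in ESCs (2.38 to 3.39 CPM) and 2 in EpiLCs (7.39 to 9.88 CPM), and Gata6, Sox17 and Foxa2 have none. Among the marker lists, Pou3f1 and Sox3 were called lower in exposed ESCs by edgeR. They were 2 of the 9 formative markers with a row, where 3.55% of all genes were called lower. Leaving out any library took the number of genes called in ESCs from 906 to 0 or 1. The summed CPM of the 4 neural markers in the ESC table was 108 to 116 with the vehicle and 98.1 to 104 with Δ9-THC. The part of these differences in the results below was not tested. In RNA from whole cultures, fewer cells that express a gene and less RNA per cell cannot be told apart.

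Neither cell type showed a member that passed the test of exposure. In ESCs, 0 of 10 members passed at an adjusted p of 0.05 (edgeR's quasi-likelihood test, Benjamini-Hochberg over all genes), where 6.91% of all genes did. In EpiLCs, 0 of 9 members and 0% of all genes did. The widest separation was that of Id3 in EpiLCs, with 2.01 ± 0.37 CPM in vehicle and 3.49 ± 0.53 CPM in exposed cells (SD, n = 3). Id2 was 2.60-fold higher in vehicle EpiLCs than in vehicle ESCs, while Id1 was 1.78-fold and Id3 1.93-fold higher in ESCs, as levels set side by side without a test.

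To order the genes by level, CPM was divided by the exon length of each gene in kilobases (RPKM). This length takes the exons of all annotated transcripts of a gene together, so it can exceed that of a single mRNA. In vehicle ESCs Bmpr1a was the highest at 16.1 ± 0.70 RPKM (SD, n = 3), followed by Smad5 at 4.90 ± 0.21 and Smad1 at 3.48 ± 0.25. Then came Bmp4 at 2.66 ± 0.66 RPKM, Id1 at 2.33 ± 0.14, Smad6 at 2.30 ± 0.12 and Id3 at 2.17 ± 0.15, and neighbours from Smad1 down to Id3 overlapped in their libraries. Bmpr2 at 1.35 ± 0.091 RPKM, Id2 at 1.09 ± 0.15 and Smad9 at 0.318 ± 0.056 followed without overlap. The type I receptor thus stood well above the type II receptor and above every Smad of this set in RNA per length.

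In vehicle EpiLCs Bmpr1a was again the highest at 14.0 ± 1.82 RPKM (SD, n = 3), and Smad5 again the second at 4.76 ± 0.43. Smad6 at 3.07 ± 0.52 RPKM, Smad1 at 2.97 ± 0.23 and Id2 at 2.83 ± 0.45 came next, and neighbours among these overlapped. The remaining genes, Bmp4 at 1.82 ± 0.23 RPKM, Bmpr2 at 1.35 ± 0.25, Id1 at 1.31 ± 0.31 and Id3 at 1.12 ± 0.21, formed a low group in which each overlapped the next. Id2 ranked below the other Id genes in ESCs and above them in EpiLCs.

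**Figure D1:**
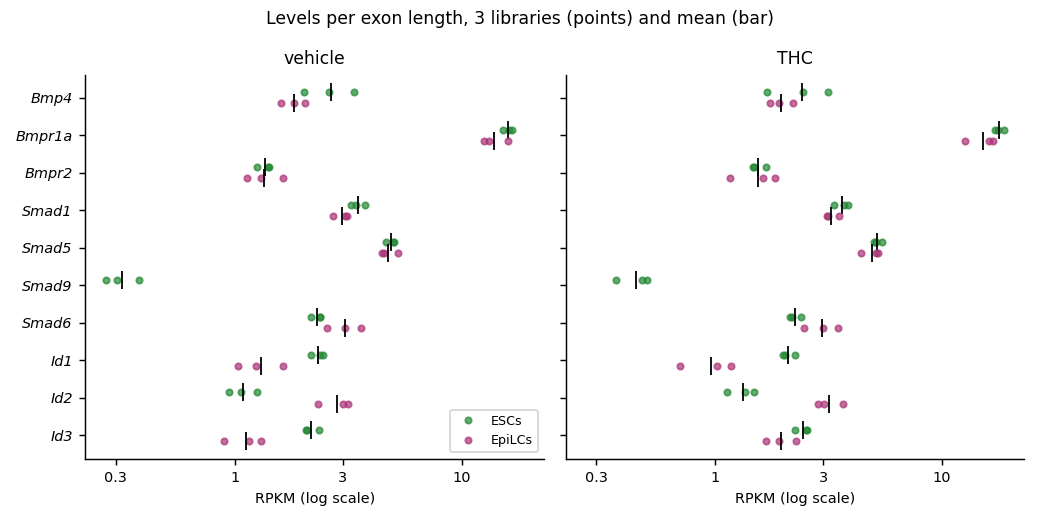
RPKM of the 10 genes on a log axis, with vehicle on the left and Δ9-THC on the right; each point is a library (green for ESCs, purple for EpiLCs) and each bar the mean of 3. Bmpr1a lies near 16.1 in vehicle ESCs and 14.0 in vehicle EpiLCs, Smad9 has points in ESCs alone, and Id2 is the gene furthest to the right in EpiLCs relative to ESCs.

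The authors adjusted the counts of the 2 cell types for batch separately, so levels across them carry any difference between the adjustments and were not tested. On the log2 scale, vehicle EpiLCs minus vehicle ESCs was 1.38 for Id2, 0.42 for Smad6, -0.83 for Id1, -0.95 for Id3 and -0.54 for Bmp4. For Bmpr1a, Bmpr2, Smad1 and Smad5 the ratio of EpiLCs to ESCs lay between 0.852 and 1.00. Taking all 6 libraries of each cell type, the CPM ranges did not overlap for Id1, Id2 and Smad6 and overlapped for the other 6 genes. The share of all genes without such overlap was not computed, so this does not set the members apart from other genes. The range of Id3 overlapped through a single exposed EpiLC library at 4.05 CPM, and among exposed cells its level was 1.25-fold higher in ESCs. Scaling by library totals alone or by TMM over all 12 libraries kept each of these signs, except that of Bmpr2, whose levels were nearly equal.

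Bmp4 (ENSMUSG00000021835, GRCm38 chromosome 14 from 46383520 to 46390669, reverse strand) is the ligand. In ESCs it was at 4.54, 7.52 and 5.86 CPM in the vehicle libraries and 7.04, 3.81 and 5.49 CPM in the exposed ones. The groups overlapped over nearly their whole range, and the log2(fold-change) of exposed over vehicle was -0.14 (SE 0.26, adjusted p = 0.767 in edgeR after Benjamini-Hochberg). EpiLCs had 4.12, 3.58 and 4.60 CPM with the vehicle and 4.29, 4.96 and 3.91 CPM with Δ9-THC, again overlapping (log2(fold-change) 0.10, SE 0.14, adjusted p = 0.779 in edgeR after Benjamini-Hochberg). Replicates 1 and 2 of ESCs show a property of the adjusted counts: where the vehicle library of a number is low, the exposed library of that number is high. This held for 29 of 30 same-numbered pairs of the members in ESCs and 26 of 27 in EpiLCs. The libraries of a cell type therefore did not vary independently, and the SDs describe adjusted counts rather than the cultures. The SEs and p-values given here come from fits that treat the libraries as independent.

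Bmpr1a (ENSMUSG00000021796, chromosome 14 from 34410734 to 34503341, reverse strand) is a type I receptor and phosphorylates the Smads. Vehicle ESCs had 106, 103 and 97.2 CPM and exposed ESCs 108, 112 and 119 CPM. Every exposed library was above every vehicle library, though by little, and the log2(fold-change) was 0.15 (SE 0.047, adjusted p = 0.102 in edgeR after Benjamini-Hochberg). In EpiLCs the vehicle libraries had 80.1, 102 and 84.0 CPM and the exposed ones 107, 80.5 and 102 CPM, which overlap (log2(fold-change) 0.12, SE 0.14, adjusted p = 0.712 in edgeR after Benjamini-Hochberg).

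Bmpr2 (ENSMUSG00000067336, chromosome 1 from 59763400 to 59879014, forward strand) is the type II receptor that activates the type I partner. ESCs had 25.1, 25.5 and 22.5 CPM with the vehicle and 26.8, 26.5 and 30.1 CPM with Δ9-THC, again without overlap (log2(fold-change) 0.19, SE 0.071, adjusted p = 0.141 in edgeR after Benjamini-Hochberg). These receptors are the 2 members of 10 whose ESC groups did not overlap with the exposed group higher, against 16.7% of all genes, and 32.6% of all genes did not overlap in either direction. In EpiLCs Bmpr2 had 20.3, 29.3 and 23.4 CPM with the vehicle and 33.1, 20.9 and 29.2 CPM with Δ9-THC, and the groups overlapped (log2(fold-change) 0.19, SE 0.20, adjusted p = 0.704 in edgeR after Benjamini-Hochberg).

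The receptor genes have exons of low GC content, 42.2% for Bmpr1a and 39.4% for Bmpr2, and the exposure difference of all genes followed GC content. The Spearman correlation of log2(fold-change) with exon GC across genes was -0.54 in ESCs and -0.31 in EpiLCs, where genes are not independent replicates. With offsets fitted to each library's trend over GC content and exon length, the log2(fold-change) in ESCs was 0.097 for Bmpr1a and 0.098 for Bmpr2. The same offsets in EpiLCs turned the signs, to -0.0090 for Bmpr1a and -0.053 for Bmpr2. They also moved the median log2(fold-change) of all genes, by 0.043 in ESCs and by -0.047 in EpiLCs. A small change of sign can therefore reflect this shift of all genes.

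Smad1 (ENSMUSG00000031681, chromosome 8 from 79338395 to 79399518, reverse strand) and Smad5 (ENSMUSG00000021540, chromosome 13 from 56703010 to 56742377, forward strand) are the transcription factors that the receptors activate. Smad1 was at 20.5 to 23.6 CPM in vehicle and 20.9 to 24.2 CPM in exposed ESCs, and at 17.0 to 19.6 and 19.4 to 22.1 CPM in EpiLCs. Smad5 was at 34.6 to 37.5 CPM in vehicle and 37.2 to 40.5 CPM in exposed ESCs, and at 33.2 to 39.0 and 32.7 to 38.9 CPM in EpiLCs. The groups overlapped in each of these 4 comparisons, by a narrow margin for Smad5 in ESCs and for Smad1 in EpiLCs. The log2(fold-change) lay between 0.048 and 0.13, with adjusted p-values from 0.312 to 0.858 (edgeR, Benjamini-Hochberg). For Smad5 in EpiLCs the GC and length offsets turned the sign, to -0.069.

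Smad9 (ENSMUSG00000027796, chromosome 3 from 54755582 to 54801257, forward strand), the third Smad of this class, was the scarcest member in ESCs, with 40 to 80 counts per library. It was at 2.04, 1.46 and 1.62 CPM with the vehicle and at 1.97, 2.68 and 2.56 CPM with Δ9-THC. Only the first exposed library reached into the vehicle range, and the log2(fold-change) of 0.49 was the largest of the 10 members in ESCs (SE 0.17, 95% confidence interval 0.074 to 0.90, adjusted p = 0.124 in edgeR after Benjamini-Hochberg). Leaving out each library in turn gave 0.39 to 0.65. Smad9 passed the threshold in 0 of these 6 fits, each of which called only 0 or 1 of all genes.

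Smad6 (ENSMUSG00000036867, chromosome 9 from 63953076 to 64022059, reverse strand) inhibits the pathway and is itself a target of it. In ESCs it had 7.61, 7.59 and 6.92 CPM with the vehicle and 6.87, 6.99 and 7.67 CPM with Δ9-THC. EpiLCs had 8.21, 9.77 and 11.6 CPM with the vehicle and 11.1, 9.56 and 7.93 CPM with Δ9-THC. In both cell types the groups coincided, with a log2(fold-change) in ESCs of -0.041 (SE 0.074) and -0.044 (SE 0.17) in EpiLCs. Smad6 has the highest exon GC content of the members, 60.0%, and the offsets turned both signs, to 0.16 and 0.0018.

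Id1 (ENSMUSG00000042745, chromosome 2 from 152736251 to 152737410, forward strand), often used as a readout of BMP signalling, was the Id gene with lower means under exposure. Vehicle ESCs had 2.83, 2.52 and 2.75 CPM and exposed ESCs 2.30, 2.61 and 2.35 CPM (log2(fold-change) -0.16, SE 0.13, adjusted p = 0.474 in edgeR after Benjamini-Hochberg). In EpiLCs Id1 had 1.20, 1.45 and 1.90 CPM with the vehicle and 1.36, 1.18 and 0.810 CPM with Δ9-THC (log2(fold-change) -0.43, SE 0.25, adjusted p = 0.464 in edgeR after Benjamini-Hochberg). The groups overlapped in both cell types. Only 24 to 46 counts per EpiLC library stood behind the latter values, and the 95% confidence interval of the log2(fold-change) ran from -1.03 to 0.17.

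Id2 (ENSMUSG00000020644, chromosome 12 from 25093799 to 25097140, reverse strand) had 3.05, 2.30 and 2.61 CPM in vehicle and 2.76, 3.61 and 3.31 CPM in exposed ESCs. Its levels in EpiLCs were 7.69, 7.35 and 5.67 CPM with the vehicle and 6.94, 7.40 and 8.94 CPM with Δ9-THC. In each cell type the groups overlapped with the exposed mean higher, with a log2(fold-change) in ESCs of 0.28 (SE 0.14, adjusted p = 0.247 in edgeR after Benjamini-Hochberg) and 0.16 in EpiLCs (SE 0.15, adjusted p = 0.656 in edgeR after Benjamini-Hochberg).

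Id3 (ENSMUSG00000007872, chromosome 4 from 136143497 to 136145755, forward strand) differed most between the exposures, in EpiLCs. Vehicle EpiLCs had 1.61, 2.07 and 2.35 CPM from 47, 66 and 53 counts, and exposed EpiLCs had 4.05, 3.42 and 3.00 CPM from 104, 87 and 89 counts. The lowest exposed library was above the highest vehicle library, which made Id3 the 1 member of 9 without overlap in EpiLCs, where 11.2% of all genes were higher without overlap, 10.6% lower, and 21.8% without overlap in either direction. The ratio of the means was 1.74 and the log2(fold-change) 0.80 (SE 0.18, 95% confidence interval 0.37 to 1.23), with an edgeR p of 0.0035 and a Benjamini-Hochberg adjusted p of 0.172. A log2(fold-change) of this size in either direction was rare in EpiLCs, at 0.372% of all genes, but 274 genes had a p as low. The smallest adjusted p of any gene in EpiLCs was 0.144, and the range for Id3 over 14 settings was 0.0253 to 1.00, passing the threshold in 1 of them, the fit of all 12 libraries, which called 3.31% of genes in EpiLCs.

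In ESCs Id3 had 3.75, 4.20 and 3.71 CPM with the vehicle and 4.52, 4.05 and 4.57 CPM with Δ9-THC. The second library of each group crossed the other group, and the log2(fold-change) was 0.17 (SE 0.098, adjusted p = 0.296 in edgeR after Benjamini-Hochberg). The exon GC content of Id3, 54.4%, is above the median of all genes, 49.4% in EpiLCs, and with the GC and length offsets its log2(fold-change) was 0.27 in ESCs and 0.85 in EpiLCs. Leaving out each library in turn gave 0.66 to 0.92 in EpiLCs.

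**Figure D2:**
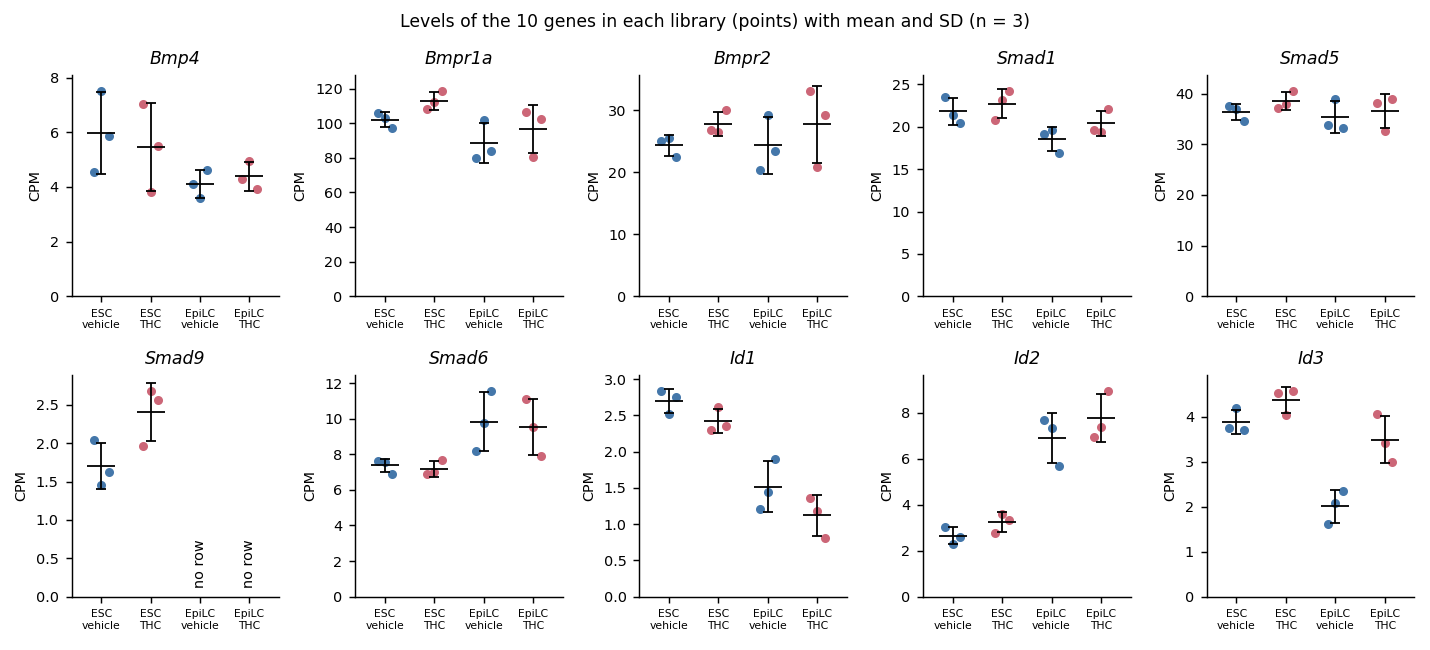
CPM of the 10 genes in each library, an axis from 0 for each gene; points are libraries (blue for vehicle, red for Δ9-THC), the bar is the mean and the whiskers the SD of 3. For Id3 in EpiLCs the vehicle libraries end at 2.35 and the exposed ones begin at 3.00, while for Bmp4 and Smad6 the groups lie across each other in both cell types.

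Counted over the members, 7 of 10 in ESCs and 7 of 9 in EpiLCs had a positive log2(fold-change), where 51.1% and 50.7% of all genes did. These counts depend on the scaling. The GC and length offsets turned Smad6 positive in both cell types and Bmpr1a, Bmpr2 and Smad5 negative in EpiLCs. They also moved the median of all genes, by 0.043 in ESCs and by -0.047 in EpiLCs. Without offsets the median of the members was 0.12 in ESCs and 0.12 in EpiLCs, beside 0.0041 and 0.0030 over all genes. At an unadjusted p under 0.05 there were 3 of 10 members in ESCs, Bmpr1a, Bmpr2 and Smad9, against 28.7% of all genes, and 1 of 9 in EpiLCs, Id3, against 15.1%. The share in ESCs was thus near that of all genes. DESeq2 also passed 0 members in both cell types, but gave Id1, Id2, Id3, Bmp4 and Smad9 no adjusted p in ESCs.

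**Figure D3:**
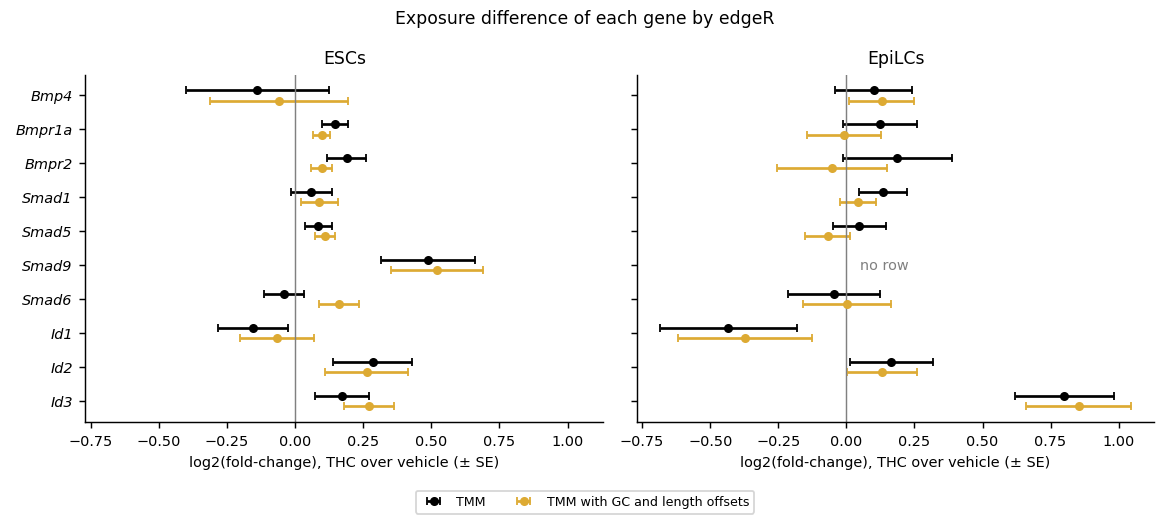
The log2(fold-change) of exposed over vehicle for each gene in ESCs (left) and EpiLCs (right), with its SE as whiskers, by edgeR with TMM (black) and with added offsets for GC content and length (yellow). Id3 in EpiLCs lies at 0.80 and 0.85, whereas Smad6 in ESCs is at -0.041 without and 0.16 with the offsets.

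An interaction term tested whether exposure differed in its effect on the members between ESCs and EpiLCs, over 12 libraries and 12410 shared genes. Id3 had a log2 difference, EpiLC effect minus ESC effect, of 0.65 (SE 0.21, 95% confidence interval 0.20 to 1.10, adjusted p = 0.198 in edgeR after Benjamini-Hochberg). The other 8 members tested lay between -0.26 for Id1 and 0.25 for Bmp4, with adjusted p-values from 0.726 to 0.989 (edgeR, Benjamini-Hochberg). Of the members, 0 of 9 passed, and 4 genes, 0.0322% of all, did so.

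The wider pathway was read from 97 listed genes, of which 66 have a row in ESCs and 68 in EpiLCs, the members included. In ESCs 5 of 66 passed the test, 2 higher and 3 lower in exposed cells, against 3.37% and 3.55% of all genes called higher and lower. In EpiLCs 0 of 68 passed. The groups did not overlap for 16 of 66 in ESCs and 10 of 68 in EpiLCs, against 32.6% and 21.8% of all genes. The median log2(fold-change) of the pathway genes was -0.020 in ESCs and 0.051 in EpiLCs, beside 0.0041 and 0.0030 over all genes, and 20 of 66 and 7 of 68 had an unadjusted p under 0.05, against 28.7% and 15.1% of all genes.

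Ligands other than Bmp4 were few: Bmp6, Bmp7 and Gdf3 in both cell types, Bmp8a in ESCs alone and Bmp8b in EpiLCs alone, with no row for Bmp2, Bmp5 or Bmp10. All 5 ligands in ESCs, Bmp4 included, had a negative log2(fold-change), from -0.64 to -0.075, where 51.1% of all genes had a positive one, and 0 passed. Their exon GC content, from 50.0% for Gdf3 to 59.5% for Bmp8a, was above the median of 49.3%. With the GC and length offsets the log2(fold-change) was -0.26 for Bmp6 and -0.060 for Bmp4. Bmp6, the nearest relative of Bmp5 and Bmp7 among BMPs, was at 1.06 to 1.24 CPM in vehicle and 0.770 to 0.922 CPM in exposed ESCs, without overlap (log2(fold-change) -0.41, SE 0.19, adjusted p = 0.212 in edgeR after Benjamini-Hochberg). In EpiLCs Bmp6 was at 1.99 to 2.42 and 1.96 to 2.38 CPM, which overlap.

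Among the co-receptors, Eng (endoglin) was lower in exposed ESCs, with 44.7 to 48.2 CPM in vehicle and 37.4 to 40.7 CPM in exposed libraries (log2(fold-change) -0.23, SE 0.047, adjusted p = 0.0420 in edgeR after Benjamini-Hochberg). Rgma, which encodes a membrane-anchored BMP co-receptor, had 2.20, 2.26 and 2.52 CPM in vehicle and 3.82, 3.82 and 3.44 CPM in exposed EpiLCs, without overlap (log2(fold-change) 0.67, SE 0.11, adjusted p = 0.144 in edgeR after Benjamini-Hochberg). In ESCs Rgma had 6.73 to 7.81 CPM with the vehicle and 5.74 to 6.74 CPM with Δ9-THC (log2(fold-change) -0.27, adjusted p = 0.116 in edgeR after Benjamini-Hochberg), and the GC and length offsets gave -0.087. Its difference between the cell types was the closest of 62 pathway genes to the threshold, 0.96 (SE 0.15, adjusted p = 0.0526 in edgeR after Benjamini-Hochberg). Over 16 settings that adjusted p ranged from 0.0055 (DESeq2, the 1 setting that passed) to 1.00. In the fit of all 12 libraries Rgma passed in EpiLCs (adjusted p = 0.0205 in edgeR after Benjamini-Hochberg).

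Of the regulators of Smads inside the cell, Ppm1a, a phosphatase that removes the activating phosphate from Smads, was higher in exposed ESCs, at 133 to 136 CPM in vehicle and 148 to 151 CPM in exposed libraries (log2(fold-change) 0.16, SE 0.024, adjusted p = 0.0301 in edgeR after Benjamini-Hochberg). Map3k7, the kinase TAK1 of the Smad-independent branch, was higher too, at 84.2 to 84.7 and 92.5 to 92.7 CPM (log2(fold-change) 0.13, SE 0.024, adjusted p = 0.0363 in edgeR after Benjamini-Hochberg). Stub1, a ubiquitin ligase, was lower, at 26.0 to 27.5 and 20.4 to 21.7 CPM (log2(fold-change) -0.34, SE 0.042, adjusted p = 0.0278 in edgeR after Benjamini-Hochberg), but 42.3% of its exon bases overlap other genes and the counting ignored strand. Xiap, which links receptors to TAK1, missed the threshold (log2(fold-change) 0.27, adjusted p = 0.0519 in edgeR after Benjamini-Hochberg) and passed with DESeq2 alone of 14 settings (adjusted p = 0.0049). In EpiLCs Tob2, a repressor of Smad activity, was at 16.8 to 18.6 CPM with the vehicle and 13.6 to 14.8 CPM with Δ9-THC (log2(fold-change) -0.35, SE 0.077, adjusted p = 0.171 in edgeR after Benjamini-Hochberg). Of 14 settings Tob2 passed in 1, the fit of all 12 libraries (adjusted p = 0.0285 in edgeR after Benjamini-Hochberg).

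Hes1, a repressor of the bHLH family, was the target gene that passed in ESCs, lower at 41.8 to 44.3 CPM than the 47.2 to 50.1 CPM of the vehicle (log2(fold-change) -0.18, SE 0.039, adjusted p = 0.0489 in edgeR after Benjamini-Hochberg). The pathway genes called higher in ESCs had an exon GC content below the median of 49.3%, 42.4% for Ppm1a and 44.0% for Map3k7. Those called lower lay above it, at 57.1% for Eng, 59.3% for Stub1 and 52.4% for Hes1. With the GC and length offsets 0 of 5 passed, but that fit called only 2 of 13104 genes. The log2(fold-change) with offsets was -0.074 for Eng, -0.16 for Stub1 and -0.097 for Hes1, and 0.13 for Ppm1a and 0.11 for Map3k7. The sign stayed in all 5, and the 3 genes called lower moved by more than 1.5 times. Leaving out any single ESC library also ended all 5 calls, with edgeR adjusted p-values from 0.0721 to 0.156 (Benjamini-Hochberg). A fit with a term for replicate number (the replicate block) ended them too, with edgeR adjusted p-values from 0.414 to 0.495 (Benjamini-Hochberg). Of all genes, the fits without a library called 0 or 1 and the block called 5. The loss of these calls is therefore not particular to the 5 pathway genes.

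**Figure D4:**
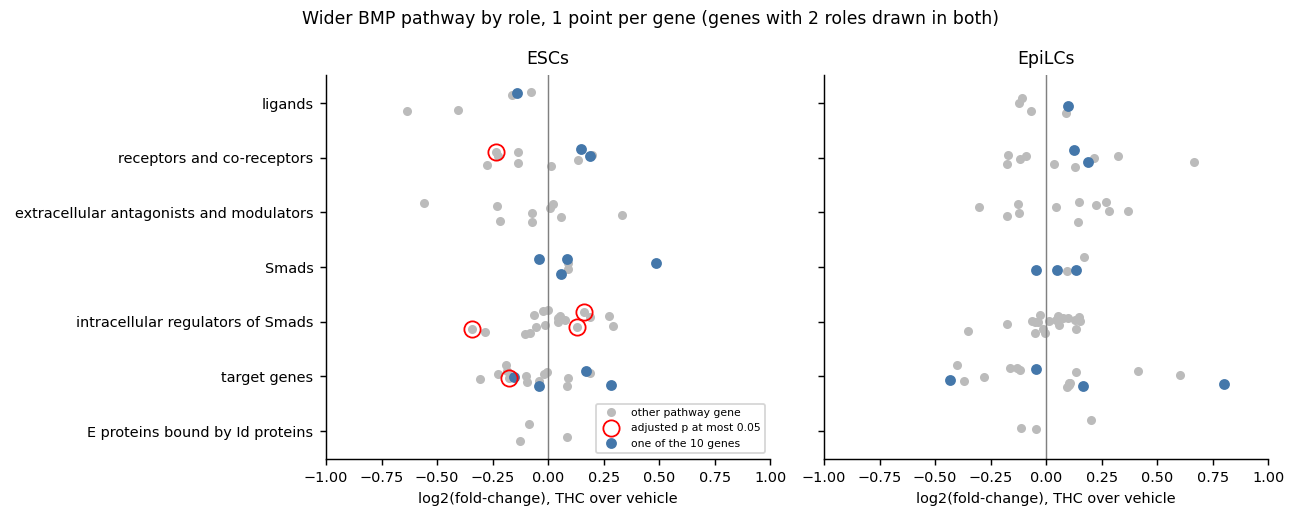
The log2(fold-change) of exposed over vehicle for each pathway gene with a row, by role, in ESCs (left) and EpiLCs (right); blue points are the 10 genes, grey points other pathway genes and red rings those with an adjusted p of at most 0.05. The 5 rings are all in ESCs, between -0.34 and 0.16, and the furthest blue point is Id3 in EpiLCs at 0.80.

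Id4, the remaining Id gene, has a row in ESCs alone, with 8.62 ± 0.97 CPM (SD, n = 3) in vehicle and 9.18 ± 1.07 CPM in exposed cells (log2(fold-change) 0.086, SE 0.11, adjusted p = 0.661 in edgeR after Benjamini-Hochberg). Smad4, the shared partner of the Smads, was at 89.0 ± 1.23 and 94.7 ± 1.23 CPM (SD, n = 3) in vehicle and exposed ESCs and at 65.7 ± 7.23 and 74.0 ± 7.99 CPM in EpiLCs. Smad7, the other inhibitory Smad, was at 81.8 ± 3.65 and 87.2 ± 4.12 CPM (SD, n = 3) in ESCs and at 59.2 ± 8.60 and 63.3 ± 10.5 CPM in EpiLCs. Neither passed the test in either cell type, with adjusted p-values from 0.0906 to 0.809 (edgeR, Benjamini-Hochberg).

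Of the E proteins that Id proteins bind, Tcf3 stood at 35.2 ± 1.77 RPKM in vehicle ESCs and 38.6 ± 3.36 in vehicle EpiLCs, Tcf12 at 3.99 ± 0.15 and 3.13 ± 0.42, and Tcf4 at 1.75 ± 0.075 and 1.97 ± 0.42 (SD, n = 3). Tcf3 was far above Id1, Id2 and Id3 in both cell types. By mean RPKM, Tcf4 was below Id1 and Id3 in ESCs and below Id2 in EpiLCs. That order rests on the length used, which for Tcf4 was 27.4 kb over all its transcripts. In CPM, Tcf4 was above Id1, Id2 and Id3, at 47.9 ± 2.06 in vehicle ESCs and 53.9 ± 11.6 in vehicle EpiLCs (SD, n = 3). The highest of these Id genes were Id3 in ESCs, at 3.88 CPM, and Id2 in EpiLCs, at 6.90 CPM. In CPM, Tcf3 was at 142 ± 7.16 and 130 ± 6.41 CPM (SD, n = 3) in vehicle and exposed ESCs and at 156 ± 13.6 and 144 ± 12.4 CPM in EpiLCs. Tcf12 was at 61.9 ± 2.36 and 58.4 ± 2.43 CPM (SD, n = 3) in ESCs and at 48.6 ± 6.58 and 55.9 ± 7.40 CPM in EpiLCs. Of the E proteins on the list, 0 of 3 passed in either cell type.

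Among the other target genes, Gata2, Tbx3 and Prdm14 had vehicle levels that differed more than 8-fold between the cell types. In vehicle ESCs Tbx3 was at 263 ± 17.2 CPM (SD, n = 3), Prdm14 at 80.0 ± 2.73 and Gata2 at 18.5 ± 6.96, beside 2.08 ± 0.21, 0.925 ± 0.16 and 0.812 ± 0.032 CPM in vehicle EpiLCs. Tbx3 and Prdm14 are regulators of naive pluripotency, and Gata2 is a regulator of trophoblast and blood lineages. In exposed EpiLCs Tbx3 was at 2.50 to 3.03 CPM against 1.89 to 2.30 CPM with the vehicle, and Prdm14 at 1.21 to 1.52 against 0.790 to 1.11 CPM. Both were above the vehicle range without passing the test (log2(fold-change) 0.41 and 0.60, adjusted p = 0.237 and 0.216 in edgeR after Benjamini-Hochberg). Of all genes in EpiLCs, 11.2% were higher without overlap.

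Hey1, Gata2 and Tfap2a lay below the vehicle range in exposed EpiLCs without passing the test. Of 17 target genes with a row in EpiLCs, 4 were lower and 3 higher without overlap, against 10.6% and 11.2% of all genes. Hey1, a bHLH repressor, had 2.94 to 3.12 CPM against 3.74 to 4.03 CPM with the vehicle (log2(fold-change) -0.37, adjusted p = 0.199 in edgeR after Benjamini-Hochberg). Tfap2a had 0.810 to 1.02 against 1.13 to 1.37 CPM (log2(fold-change) -0.40, adjusted p = 0.369 in edgeR after Benjamini-Hochberg), and Gata2 0.630 to 0.708 against 0.790 to 0.849 CPM (log2(fold-change) -0.28, adjusted p = 0.619 in edgeR after Benjamini-Hochberg). Both rested on few counts, 24 to 36 per library for Tfap2a and 16 to 27 for Gata2.

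Across libraries, the likeness of other genes to Id1 was measured as the Pearson correlation of log2 CPM deviations from each group's mean, over 12 libraries and 9535 genes. The most alike were Gipc1 (r = 0.994), Wipi1 (r = 0.994) and Flad1 (r = 0.992). Id3 ranked 741st with r = 0.75 and Id2 7579th with r = -0.54. Within the 6 ESC libraries alone the order of the Id genes turned, at -0.97 for Id3 and 0.89 for Id2, and within the 6 EpiLC libraries r was 0.94 for Id3 and -0.97 for Id2. These are descriptions, since mirrored libraries of the adjusted counts leave few independent points.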

How the data were processed

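RNA-seq of 12 libraries was used, and PGCLC libraries were not analysed here. The authors aligned reads with STAR, keeping single mappings, to a genome named both mm10 and GRCm39, counted exons with HTSeq without strand, removed low counts and adjusted for batches they do not name with ComBat-seq. Libraries came from either of 2 kits, not said which. The deposited values are adjusted counts, whole numbers in a table for each cell type, with 0 columns left over.

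Counts were scaled by TMM and tested within each table by edgeR 4.0.16 (quasi-likelihood, Benjamini-Hochberg, threshold 0.05, no filter beyond a total over 10) in R 4.3.3. SEs and intervals are those implied by the p-values. The fits were run on simulated counts with known changes. Those counts were drawn independently for each library, so that run cannot check the fits on the mirrored libraries here. Positions, exon lengths and GC content are from GENCODE M21 on GRCm38.

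The members and lists were chosen with earlier results of these data known. Text names the members, and pathway genes with an adjusted p of at most 0.05, with non-overlapping groups and a log2(fold-change) over 0.25 in size, or over 8-fold apart between tables, plus Id4, Smad4, Smad7, Tcf3 and Tcf12. Alternatives were RLE, filters, DESeq2 1.42.0, offsets (splines with 5 degrees of freedom), the replicate block, 12 libraries together and leaving out libraries. Figures were drawn with matplotlib 3.10.9.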

Additional observations from a re-analysis of the deposited data

How the results depend on the processing

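The alternatives were followed for the members' tests of exposure and, for Id1, Id2 and Id3 only, of its difference between cell types. Of these tests with an adjusted p, 291 kept their direction and their side of the threshold and 16 reversed. Only 1, Id3 in EpiLCs in the fit of 12 libraries (0.80, adjusted p = 0.0253 in edgeR after Benjamini-Hochberg), passed newly. The 291 include fits that could hardly differ from the main one. The fit without a filter repeats it, since the lowest gene total was 80. The filter of 10 counts in every library kept 13094 of 13104 genes in ESCs and 13706 of 13717 in EpiLCs. Id1, Id3 and Smad9 rested on few counts per library, and counting error was not separated from other spread. Few counts also stood behind Bmp6 in ESCs (21 to 36 per library). The same held in EpiLCs for Gata2 (16 to 27), Tfap2a (24 to 36) and Prdm14 (23 to 39).

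The number of genes called in ESCs was 906 and became 31 in the fit of 12 libraries, 2 with GC and length offsets, 5 with the replicate block, 7 with both, and 0 to 1 on leaving out any library. In EpiLCs it was 0 and became 71 with DESeq2, 411 in the fit of 12 libraries and 1 with block and offsets, and it was 0 on leaving out any library. The interaction called 4 genes, 133 with DESeq2, 0 with the block and 0 on leaving out any library. The causes were not tested. Deviations from the group mean correlated between vehicle and exposed libraries of the same number at -0.987 to -0.977 and of other numbers at 0.223 to 0.695. Same-numbered libraries were thus tied, as mirror images, and the main fits had no term for this tie. The replicate block gave larger SEs for the 5 pathway genes called in ESCs, as for Map3k7 (0.024 without and 0.068 with the block). With the replicate block, 0 members passed, and neither did the 5 pathway genes called in ESCs (adjusted p from 0.414 to 0.495 in edgeR after Benjamini-Hochberg).

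Offsets reversed, in ESCs, Smad6 (0.161, and 0.162 with the block), Tob2 (0.109, 0.110), Hey1 (0.0396, 0.0398), Tbx3 (0.0070, 0.0073), Prdm14 (0.0523, 0.0526) and Tcf3 (0.0944, 0.0941). In EpiLCs they reversed Bmpr1a (-0.0090, -0.012), Bmpr2 (-0.0526, -0.0623), Smad5 (-0.0685, -0.0689), Smad6 (0.0018, 0.00016), Ppm1a (-0.121, -0.121), Xiap (-0.131, -0.139) and Tcf12 (-0.0255, -0.0247). Without the block, the offsets moved the median log2(fold-change) of all genes by 0.043 in ESCs and by -0.047 in EpiLCs. Leaving out a library turned the sign at an end of the range in ESCs for Bmp4 (-0.37 to 0.080), Gata2 (-0.38 to 0.18), Hey1 (-0.064 to 0.019), Id4 (-0.00064 to 0.17), Prdm14 (-0.025 to 0.026) and Tob2 (-0.050 to 0.028). It did so in EpiLCs for Bmp4 (-0.0084 to 0.19), Hes1 (-0.073 to 0.25), Smad5 (-0.0030 to 0.12), Smad6 (-0.18 to 0.084), Smad7 (-0.041 to 0.20) and Xiap (-0.056 to 0.23). The r of Id3 with Id1 was 0.75 over 12 libraries, -0.97 in ESCs alone and 0.94 in EpiLCs alone.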
